A study of Orestias ascotanensis with 42 samples.

Results

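The seasonal difference in RNA levels was compared between gills and skeletal muscle of Orestias ascotanensis, a small Andean killifish, from the Ascotán salt pan at 3740 m. The libraries were chosen by tissue and season alone: 28 of the 42 RNA-seq libraries of the series, in 4 groups of 7, which were gills in summer, gills in winter, muscle in summer and muscle in winter. All fish were wild and were netted in the same salt pan. The 7 summer fish were caught in January 2020 and the 7 winter fish in July 2019, and each of the 14 fish gave 1 library per tissue. Each season was sampled in 1 month of 1 year, so season, year and collection cannot be told apart. Fish of all groups were killed with an overdose of tricaine (MS-222) and their tissues kept in RNAlater, and the labels give no age, sex or genotype.

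Fish gills are the surface for gas exchange and for the uptake or excretion of salt, ammonia and acid, and are in direct contact with the water. Skeletal muscle is the bulk of the body, made of contractile fibres, and its fuel use, growth and protein turnover are known to change with temperature and food in many fishes. A season by tissue interaction asks whether a gene's summer minus winter difference is unequal in the 2 tissues, and in these data it can come from gills, from muscle or from both.

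The deposited table pairs its gene identifiers with no names. The tissue labels could therefore not be checked against marker genes, no pathway or cell type list could be matched, and the roles of the genes below are not known here. Identifiers are given for 2 genes in each direction, and other genes are called by their rank.

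Total counts of the 28 libraries lay between 6074371 and 154396513, with a median of 66991796.5. The lowest belonged to muscle summer 4, where 30.3% of the genes had no count and whose median correlation with the other muscle libraries was 0.790, against 0.899 to 0.959 for the others; the next lowest total was 28009075. Libraries in 4 sets of the same tissue and season were nearly identical, with a median absolute deviation (MAD) of their log2 count ratios under 0.15: muscle summer 3, 5, 6 and 7, gills summer 4 and 7, gills winter 2 and 7, and gills winter 3 and 6. The median over pairs within a group was 0.290 in gills and 0.488 in muscle. The labels name these as separate fish, so they were kept apart; the interaction and muscle counts are also given with each set averaged into 1 sample. Averaging left fewer samples to test: 6 of summer gills, 5 of winter gills, 4 of summer muscle and 7 of winter muscle. Libraries were also close across seasons. Gills summer 1 differed from gills winter 2 and 7 by a MAD of 0.139 and 0.140, and muscle summer 1 and 2 were nearer to muscle winter 1, 4 and 5 (0.417 to 0.557) than to muscle winter 2, 3, 6 and 7 (0.673 to 0.771). Winter muscle itself was split. Muscle winter 1, 4 and 5 differed from muscle winter 2, 3, 6 and 7 by 0.649 to 1.01. Within these sets the range was 0.275 to 0.462 and 0.310 to 0.646. Pairs of a summer and a winter muscle library lay between 0.417 and 0.851, with a median of 0.618. For gills summer 1, gills winter 7 and muscle winter 4 the season tag goes against the title, as it does for skin summer 7, and the titles were followed.

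The 2 tissues differed in their seasonal response at 717 of 18966 genes tested, or 3.78% (adjusted p under 0.05 in the two-sided quasi-likelihood test of edgeR). At 607 of them (3.2% of genes tested) the summer minus winter difference was higher in gills than in muscle, and at 110 (0.58%) it was lower in gills. Before adjustment, p was under 0.05 at 3619 genes, or 19.1%. With near-identical libraries averaged, no gene passed in edgeR, and 2542 had an unadjusted p under 0.05; leaving out muscle summer 4 as well gave 0 and 2338. With each fish as a block, since gills and muscle of a fish are paired per the labels, 251 genes passed. Of these, 206 had the higher and 45 the lower difference in gills, and 231 were among the 717. Without muscle summer 4 alone, 1037 passed. The seasonal differences of the chosen genes in each tissue are parts of the same contrast and are given as a description.

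Muscle was the tissue that moved at nearly all of these genes. The muscle difference was larger in size than the gills difference at 710 of the 717 genes and smaller at 7. Over all genes tested, the muscle difference was also the larger at most, 14488 of 18966. Muscle levels fell in summer at 600 of the 607 genes and rose in summer at 106 of the 110, by the muscle contrast of the same fit, and 11 genes passed in neither tissue. Over all genes tested, 4190 passed in muscle (22.1%), of which 2826 were lower in summer (14.9%) and 1364 higher (7.19%). This split moved when any 1 gills library was left out, although all muscle libraries stayed. In these fits 2273 to 2361 were lower and 1542 to 1592 higher. The median muscle difference of all genes tested was then between -0.0011 and -0.0003, against -0.05. What shifted these values was not tested. The fit of all 28 libraries shares 1 spread estimate per gene between the tissues. Fitted alone, muscle had 1100 of 17181 genes past the threshold (6.4%) and gills 0 of 18409. With near-identical libraries averaged 1605 passed in muscle, and 682 without muscle summer 4 as well. No gene passed in gills in edgeR or in DESeq2, where p before adjustment was under 0.05 at 489 (2.58%) and 719 genes; limma voom with a quality weight for each library called 1265 gills genes, 649 higher and 616 lower in summer.

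Among the 607 genes, the median seasonal difference was 0.05 in gills (quartiles -0.06 and 0.16) and -1.54 in muscle (quartiles -2.72 and -0.90), on the log2 scale. A muscle difference of at least 2-fold was found for 416 of them and of at least 16-fold for 61. Among the 110 genes the median was -0.0020 in gills (quartiles -0.15 and 0.12) and 0.99 in muscle (quartiles 0.81 and 1.36), and 53 reached 2-fold. A gills difference of at least 2-fold was found for 8 of the 607 genes and 0 of the 110. Of all 18966 genes tested, 236 reached 2-fold in gills, and 2045 reached 2-fold and 127 reached 16-fold in muscle. Over all genes tested the median size of the seasonal difference was 0.13 in gills and 0.34 in muscle, and over the 717 genes it was 0.12 in gills and 1.36 in muscle. The gills values of the 717 genes were thus not larger, at the median, than those of all genes tested. In a bulk library, fewer cells of a type and less RNA per cell cannot be told apart, and this holds for each level given here.

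**Figure D1:**
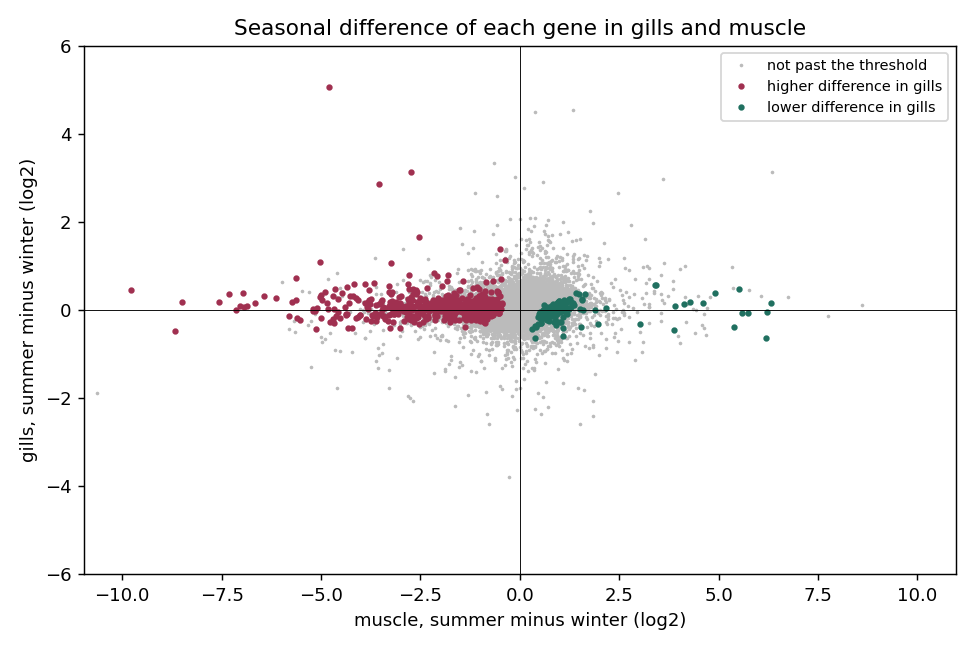
Each point is 1 of 18966 genes, with its summer minus winter log2 difference in muscle on the x axis and in gills on the y axis; coloured points are the 717 genes past the threshold of the interaction, 607 with the higher and 110 with the lower difference in gills. The coloured points spread far along the muscle axis and, but for a few, lie close to 0 on the gills axis.

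The plot of both differences shows that genes with the higher difference in gills lie mostly on the left, at lower summer levels in muscle, rather than at higher summer levels in gills. Across all genes tested, the seasonal differences had a standard deviation of 0.30 in gills and 0.82 in muscle, and correlated at a Pearson r of 0.12 and a Spearman rho of 0.19. These coefficients are across genes of 1 fit, which are not independent.

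The season tests were also run with each tissue fitted alone, which changes the spread estimate, the scaling and the genes tested. Fitted on its own 14 libraries, muscle had 1100 of 17181 genes past the threshold (6.4%) and gills 0 of 18409, with an unadjusted p under 0.05 at 4163 genes in muscle (24.2%) and 2669 in gills (14.5%). Of the 607 genes with the higher difference in gills, 603 were tested in gills alone, where 79 had an unadjusted p under 0.05 (57 higher and 22 lower in summer, 13.1%), and 487 were tested in muscle alone, where 385 passed after adjustment, all lower in summer. Of the 110 genes, 109 were tested in gills alone, with 18 at an unadjusted p under 0.05 (16.5%), and 106 in muscle alone, where 83 passed. With both directions counted, the gills shares are near the 14.5% found over all genes, but the directions were split differently. Over all genes tested in gills alone, 1119 were higher and 1550 lower in summer at an unadjusted p under 0.05. The 607 genes leaned the other way, with 57 higher and 22 lower, and the 110 genes had 7 higher and 11 lower. Both sets were chosen by the interaction in these same libraries, so their splits are no separate support.

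The gene with the smallest p was OAV3G000013503, whose seasonal differences had opposite signs in the 2 tissues. In gills it had 14.3, 18.8 and 21.9 CPM (counts scaled to a common library size; lowest, median and highest library) in summer, against 10.04, 13.47 and 14.02 CPM in winter. In muscle it had 8.84, 11.7 and 15.1 CPM in summer, against 13.7, 25.3 and 40.1 CPM in winter. All 7 summer gills libraries were above all 7 winter gills libraries, while the summer muscle libraries were lower with overlap at the edge. The interaction was 1.69 ± 0.24 (log2 difference ± SE; edgeR adjusted p = 0.00145), made of 0.50 ± 0.17 in gills and -1.19 ± 0.17 in muscle. The muscle difference passed the test, at an adjusted p of 4.2e-05 in edgeR. The gills difference did not, with an unadjusted p of 0.00631 and an adjusted p of 1, and in the gills fit alone these were 0.00026 and 0.128.

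OAV3G000011625 was second and was a gene of gills with few counts in muscle. In gills it had 24.03, 24.98 and 33.4 CPM in summer, against 20.8, 26.6 and 28.4 CPM in winter, and the seasons overlapped. In muscle it had 0, 0.102 and 0.341 CPM in summer, against 0.502, 1.27 and 3.89 CPM in winter. The muscle seasons did not overlap, although the counts behind these levels were small, from 0 to 14 in summer libraries and from 16 to 102 in winter libraries. The interaction was 3.31 ± 0.49 in edgeR (adjusted p = 0.00145), with 0.07 ± 0.27 in gills and -3.23 ± 0.40 in muscle. A log2 difference at so few counts depends on the prior count of the fit and is no bound.

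The 2 leading genes in the other direction were expressed at similar levels in both tissues. OAV3G000000046 had 16.3, 17.8 and 23.5 CPM in summer gills, against 17.1, 18.7 and 22.5 CPM in winter gills. In muscle it had 22.8, 26.4 and 40.5 CPM in summer, against 10.6, 13.52 and 18.6 CPM in winter. Gills overlapped between seasons, and every summer muscle library was above every winter muscle library. Its interaction was -1.05 ± 0.18 in edgeR (adjusted p = 0.00387), with -0.04 ± 0.13 in gills and 1.01 ± 0.13 in muscle. OAV3G000018981 had 55.9, 65.5 and 71.7 CPM in summer gills, against 51.9, 63.2 and 66.7 CPM in winter gills. In muscle it had 67.8, 81.2 and 96.7 CPM in summer, against 39.0, 45.1 and 53.5 CPM in winter. The pattern was that of the preceding gene, with overlap in gills and none in muscle. Its interaction was -0.77 ± 0.14 in edgeR (adjusted p = 0.0044), with 0.10 ± 0.10 in gills and 0.87 ± 0.10 in muscle.

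**Figure D2:**
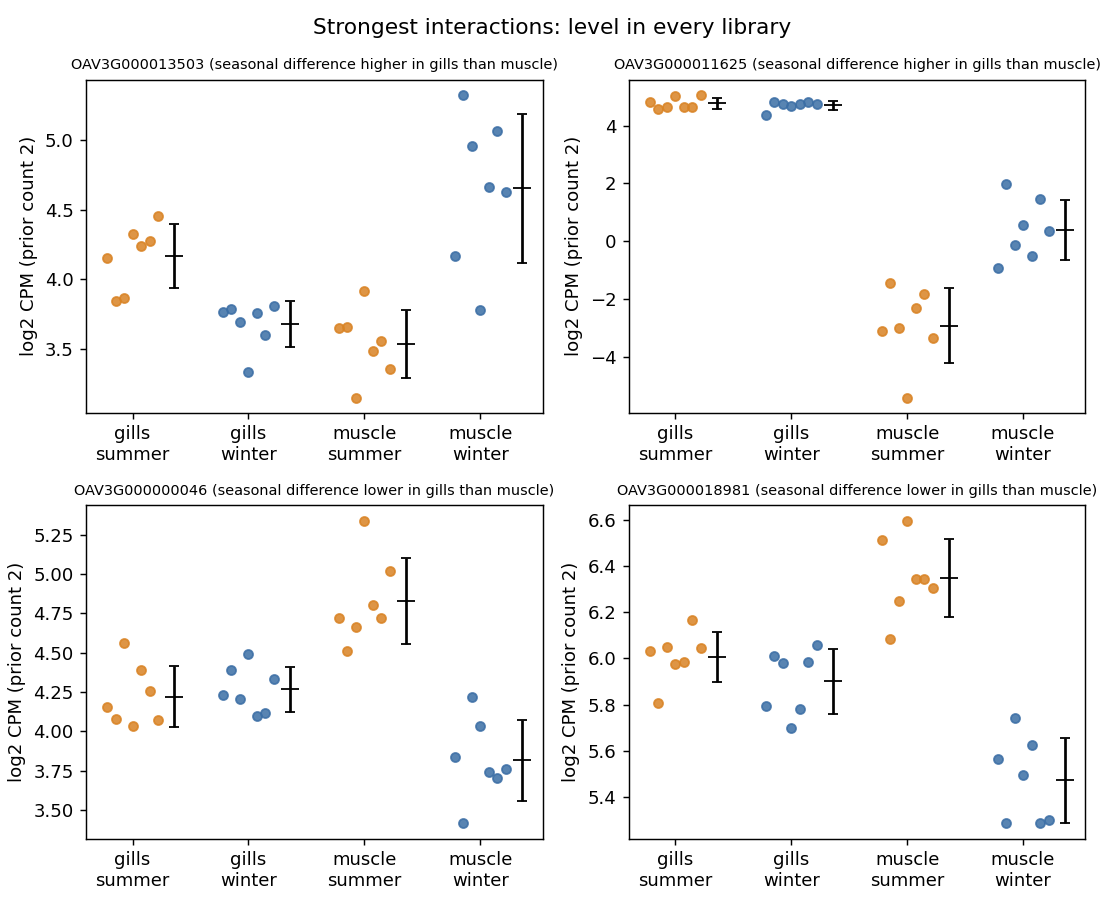
Log2 CPM (prior count 2) of OAV3G000013503, OAV3G000011625, OAV3G000000046 and OAV3G000018981 in each of the 28 libraries, by group; points are libraries, and the black mark beside them is the mean with its SD (n = 7). The season groups overlap in gills for all but OAV3G000013503 and are apart in muscle for all but OAV3G000013503.

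The difference between gills and muscle of the same fish separated the seasons completely for each of these 4 genes. For OAV3G000013503 the difference gills minus muscle in log2 CPM had a lowest, median and highest value of 0.18, 0.72 and 1.104 in summer fish, against -1.54, -0.91 and -0.40 in winter fish. The gene was thus higher in gills than in muscle in all 7 summer fish and lower in all 7 winter fish. For OAV3G000000046 the values were -1.31, -0.46 and -0.11 in summer fish, against -0.0083, 0.42 and 0.97 in winter fish, so that the order of the tissues turned in the other direction, but for the lowest winter fish. For OAV3G000018981 they were -0.62, -0.28 and -0.18 in summer fish and 0.15, 0.24 and 0.76 in winter fish. OAV3G000011625 stayed higher in gills in every fish, by 6.04, 7.63 and 10.4 in summer and by 2.83, 4.37 and 5.31 in winter. The exact permutation test over all splits of the 14 fish into 7 and 7 gave 0.000583 for each of the 4, the smallest p it can give; it uses the libraries that chose the genes and is no separate support. With near-identical libraries averaged, the interactions were 1.55, 3.13, -1.06 and -0.77 in this order, with edgeR adjusted p of 0.152, 0.152, 0.152 and 0.165. OAV3G000011625 also missed the threshold with seasons taken from the tag (2.18, adjusted p = 0.0547).

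The 12 genes with the smallest p in each direction were taken among those with a mean of at least 1 CPM in some season of each tissue. In the direction of OAV3G000013503, 4 of the 12, OAV3G000011625 among them, reached 1 CPM in muscle in winter only, so their muscle difference is part of how they were chosen. The 12 interactions ranged from 1.026 to 5.20, with gills differences from -0.20 to 0.50 and muscle differences from -4.98 to -1.001. In the other direction they ranged from -1.91 to -0.77, with gills differences from -0.38 to 0.24 and muscle differences from 0.81 to 1.53. All 24 passed in muscle and none in gills after adjustment in edgeR. Summer and winter muscle did not overlap for 8 of 12 genes in each direction, and summer and winter gills only for OAV3G000013503. Over all genes tested, summer muscle was wholly below winter muscle at 1.54% and wholly above at 0.633%, and gills did not overlap at 0.548%. The within-fish difference did not overlap between seasons for 9 and 6 of the 12, against 0.833 and 0.258% of all genes tested. The 24 genes were chosen by p in these same libraries, so such counts are no separate support.

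Levels of these 24 genes were spread widely; CPM are not divided by gene length, which the table does not hold, so an order of genes by CPM is one of reads. The gene ranked 8 among those with the higher difference in gills had the most muscle reads, 235 ± 40.6 CPM in summer and 683 ± 318 CPM in winter (mean ± SD, n = 7), while in gills it averaged 49.2 CPM in summer and 45.3 CPM in winter. The gene ranked 4 was at a similar level in both seasons of gills, 97.3 CPM in summer and 95.7 CPM in winter. In muscle it had 51.8 ± 6.52 CPM in summer and 104 ± 15.7 CPM in winter. The gene ranked 5 had 0, 0.0126 and 0.131 CPM in summer muscle (lowest, median and highest library), against 0.230, 0.643 and 5.94 CPM in winter muscle. Its mean in winter muscle was 1.71 CPM, and 1.01 CPM without muscle winter 2, and it was among the 4 genes that reached 1 CPM in muscle in winter only. It averaged 45.3 CPM in summer gills and 38.7 CPM in winter gills. Among genes with the lower difference in gills, the gene ranked 12 had the most muscle reads, at 247 ± 54.8 CPM in summer and 108 ± 39.8 CPM in winter, and averaged 22.4 CPM in summer gills and 21.6 CPM in winter gills. The gene ranked 3 was nearly a muscle gene, at 93.6 ± 21.7 CPM in summer muscle and 32.4 ± 6.09 CPM in winter muscle, and 1.38 CPM in summer gills and 1.80 CPM in winter gills. Muscle had the higher mean level for 5 of the 12 genes in the direction of OAV3G000013503 and for 9 of the 12 in the other.

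**Figure D3:**
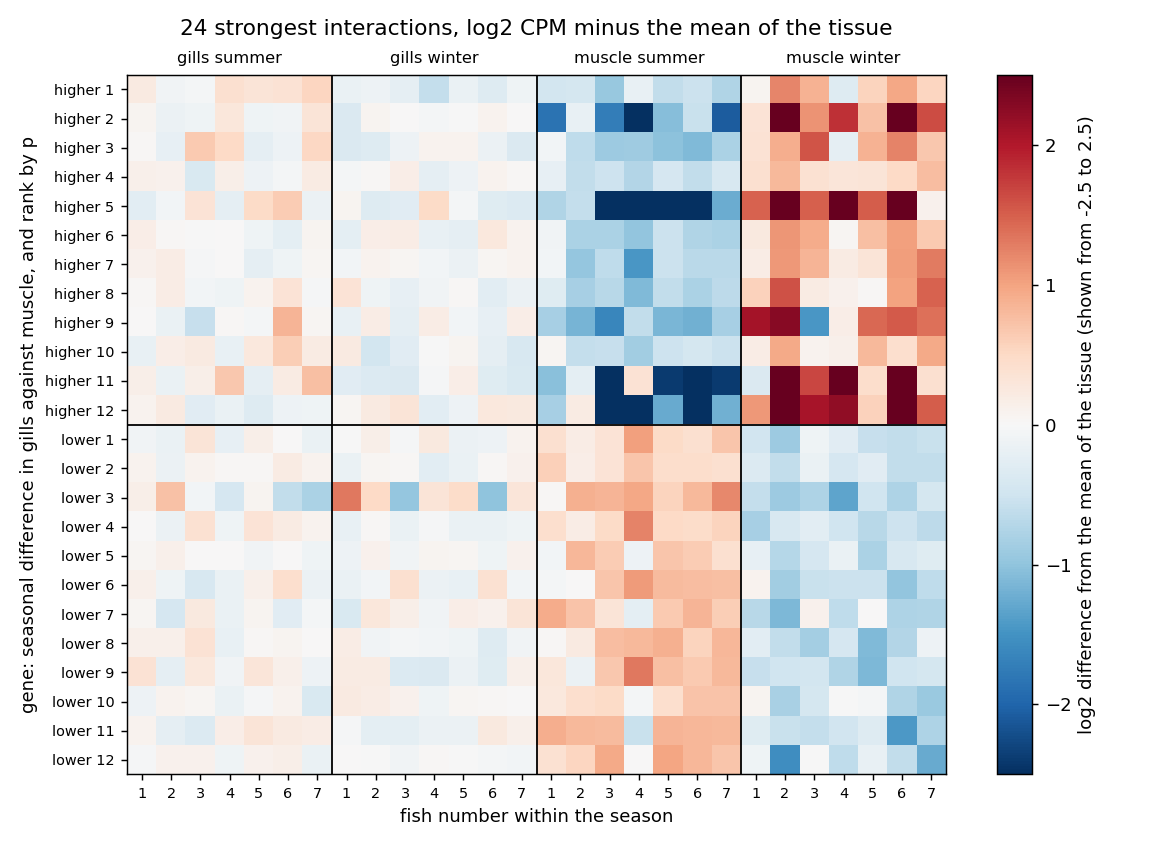
Log2 CPM of the 24 genes in each library as the difference from the gene's mean over the 14 libraries of that tissue, with 12 genes that had the higher difference in gills above the line and 12 with the lower below it; columns are fish, by tissue and season. Most muscle columns change colour between summer and winter, with single libraries that do not, and gills columns are paler but for the third gene below the line.

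Genes with the higher difference in gills were mostly well expressed in gills. The median over the 607 genes was 27.3 CPM in summer gills and 26.5 CPM in winter gills, and 3.93 CPM in summer muscle and 12.7 CPM in winter muscle. Over all genes tested these medians were 9.89, 9.67, 8.47 and 8.38 CPM in the same order. The 110 genes of the other direction had medians of 13.0 CPM in summer gills and 12.5 CPM in winter gills, and 19.2 CPM in summer muscle and 9.69 CPM in winter muscle. The share of genes past the threshold was 1.36% where the mean gills level was under 1 CPM, 2.35% from 1 to 10 CPM, 5.12% from 10 to 100 CPM and 11.2% above 100 CPM. Of 774 genes tested above 100 CPM in gills, 87 passed, and 85 of these had the higher difference in gills. By muscle level the shares were 4.71%, 2.91%, 3.87% and 5.57% in the same 4 classes. In the lowest muscle class 153 of 3248 genes passed, 149 of them with the higher difference in gills, and the median muscle difference of these 149 was -3.24, against -0.93 for the 66 genes of the same direction above 100 CPM in muscle. Both medians are over genes that passed, and a gene with few counts needs a larger difference to pass. They therefore do not show that genes at low muscle levels respond more strongly.

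A set of genes that are high in gills and near the detection limit in muscle held a large share of the calls. Of 819 genes tested with a mean level at least 16-fold higher in gills than in muscle, 239 passed, or 29.2%, all with the higher difference in gills. In the other 5 classes of tissue ratio the share was between 1.97% and 3.59%. The 239 genes had median levels of 37.7 CPM in summer gills and 34.8 CPM in winter gills, and 0.257 CPM in summer muscle and 1.76 CPM in winter muscle. Over all 819 genes, passed or not, the median seasonal difference was 0.06 in gills and -1.67 in muscle. Of the 819 genes, 765 had the lower value in summer muscle, and 457 of them passed the muscle contrast, against 2 that passed as higher. Over all genes tested, 14.9% passed as lower and 7.19% as higher. Only 410 of the 819 had enough counts to be tested when muscle was fitted alone, and 112 of these passed there.

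**Figure D4:**
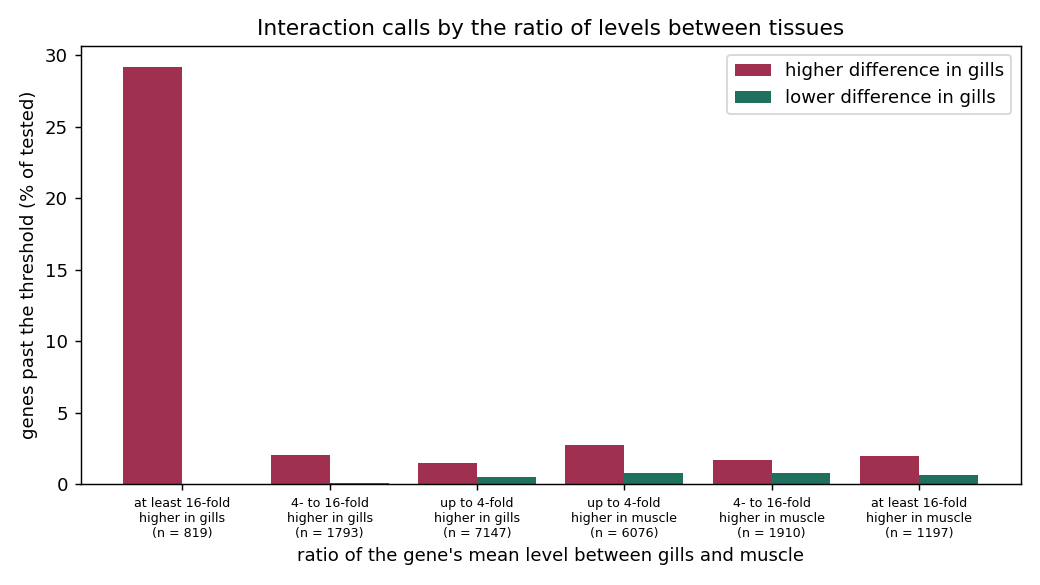
Share of tested genes past the threshold of the interaction, in percent, for 6 classes of the ratio of mean level between gills and muscle, with the number tested under each class; bars are split by direction. The class at least 16-fold higher in gills reaches 29.2%, all with the higher difference in gills, and no other class is above 3.59% in total.

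The muscle level of these 819 genes differed greatly from library to library. Expressed as a percent of the gene's mean gills level, the median gene stood at 0, 0.663 and 2.24% in summer muscle (lowest, median and highest library), against 1.28, 2.16 and 11.7% in winter muscle. Muscle winter 2 was the highest at 11.7% (quartiles over genes 8.49 and 15.0%), followed by muscle winter 4 at 4.82% and muscle winter 6 at 4.73%, while the other 4 winter libraries lay between 1.28 and 2.16%. Muscle summer 4, the shallow library, was at 0, since 70.3% of the 819 genes had no count there. Summed over the genes, the level was 530 to 2157 CPM in summer muscle and 1242 to 8078 CPM in winter muscle, and muscle summer 4 stood at 1866 CPM, above muscle summer 3, 5, 6 and 7 (530 to 697 CPM). The seasons therefore overlapped in both measures, and 3 winter libraries stood above all others.

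**Figure D5:**
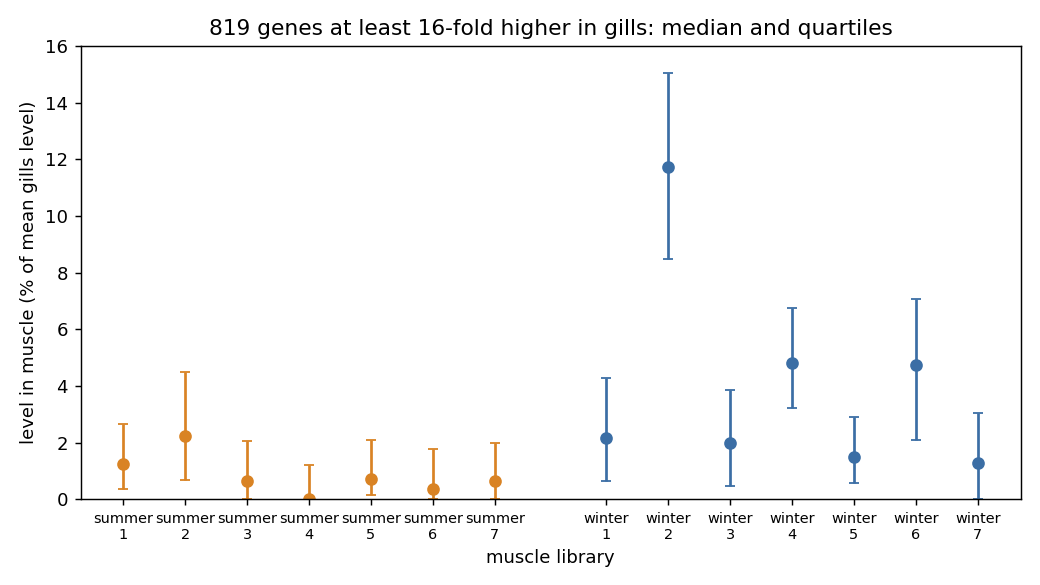
Level of 819 genes at least 16-fold higher in gills, in each muscle library, as a percent of the gene's mean level in gills; points are medians over genes and bars run from the lower to the upper quartile. Muscle winter 2, 4 and 6 stand at 11.7, 4.82 and 4.73%, and all other muscle libraries at or below 2.24%.

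The calls move with these libraries, but not with these alone. Muscle winter 2 was the highest muscle library for 230 of the 239 genes, and for 409 of the 607. The share of all genes for which it was highest is not given here. Without muscle winter 2, 385 genes passed the interaction, 327 with the higher and 58 with the lower difference in gills, and the median muscle difference of the 819 genes was -1.15. Without muscle winter 2, 4 and 6 it was -0.52, and 241 genes passed. Without muscle winter 4 alone 1269 passed, and without muscle winter 6 alone 472. Leaving out 1 gills library also lowered the count, to 401 without gills summer 7 and to 574 at most. With the 819 genes left out and p-values adjusted over the other 18147, 293 passed, 230 with the higher and 63 with the lower difference in gills. With seasons taken from the tag, 553 passed, of which 13 were among the 819. Only 296 of these 553 were among the 717 that passed with seasons taken from the titles. Whether material of another tissue in these muscle samples had a part in the result was not tested, and no marker could be matched.

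The other 368 genes with the higher difference in gills had a smaller and more even seasonal difference in muscle. Their median difference was 0.03 in gills and -0.99 in muscle, with median levels of 22.2 CPM in summer muscle and 43.1 CPM in winter muscle. All 7 summer muscle libraries were below all 7 winter libraries for 133 of them (36.1%), against 17 of the 239 (7.11%). For the 607 together this was 150 genes, or 24.7%, where 1.54% of all genes tested did so. Of the 110 genes, 41 (37.3%) had all summer muscle libraries above all winter libraries, against 0.633% of all genes tested. Muscle summer 4 was the highest muscle library for 50 of the 110, and without it 188 genes passed in this direction. The share of all genes for which it was highest is not given here. The shares without overlap follow in part from the choice of the genes by the same libraries. In gills, 3 of the 607 genes and 1 of the 110 separated the seasons, where 0.548% of all genes did. The within-fish difference separated the seasons for 120 of the 607 genes (0.833% of all genes in that direction) and for 31 of the 110 (0.258%).

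Genes at which gills moved more than muscle were few and passed in neither tissue after adjustment. The 7 such genes had an unadjusted p from 0.00072 to 0.00525 in gills. The one with the most gills reads had 61.5 ± 7.20 CPM in summer gills and 82.5 ± 8.09 CPM in winter gills, and 30.9 ± 6.83 CPM in summer muscle and 25.2 ± 5.03 CPM in winter muscle (SD, n = 7), an interaction of -0.72 in edgeR (adjusted p = 0.0226) from -0.42 in gills and 0.30 in muscle. The largest gills difference of the 7, 5.06 on the log2 scale, rested on gills summer 3, at 10.997 CPM where no other summer gills library was above 0.179 CPM. These genes were chosen after their values were seen.

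Skin of the same 14 fish, which had no part in choosing the genes, gave a tissue for comparison. No gene passed between summer and winter skin in edgeR, while before adjustment p was under 0.05 at 2064 of 18260 genes (11.3%), 382 lower (2.09%) and 1682 higher (9.21%) in summer. Skin summer 3 and 4 stood apart from the other skin libraries, with median correlations of 0.866 and 0.840 against 0.950 to 0.980. Of the 607 genes, 586 were tested in skin, and the 2 sets within them differed in sign. The genes at least 16-fold higher in gills (223 tested) had a median difference of 0.25, with 61 lower and 162 higher in summer skin, and at an unadjusted p under 0.05 these were 0 and 18. The others (363 tested) had a median of -0.15, the sign they had in muscle, with 241 lower and 122 higher, and at an unadjusted p under 0.05 these were 24 and 4. Together, 24 were lower and 22 higher (4.10 and 3.75%). Of the 110 genes, 109 were tested, with a median of 0.24 and with 1 lower and 26 higher (23.9%) at an unadjusted p under 0.05.

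The skin values moved with the libraries used. Without skin summer 3 and 4, 2 genes passed over all genes (0.0108%), none of them among the 717. Of the genes tested for the interaction, 55.4% were then lower in summer skin, with a median of -0.03. The genes at least 16-fold higher in gills had a median of 0.04, with 98 lower and 126 higher. The others of the 607 had a median of -0.10, with 265 lower and 101 higher (72.4% lower). At an unadjusted p under 0.05, 49 of 590 of the 607 genes were lower (8.31%, where 5.38% of all genes were), 45 of them among the others. In the other direction, 31 of the 590 were higher (5.25%, where 5.47% of all genes were). Of the 110 genes, 11 of 109 were higher (10.1%, where 5.47% were) and 1 was lower. Without skin summer 7, whose season tag is winter, 15 of 586 of the 607 genes were lower (2.56%, where 1.72% of all genes were). More of the 586, 27, were higher (4.61%, where 10.6% of all genes were). Of the 110 genes, 30 of 109 were higher (27.5%, where 10.6% were) and 1 was lower.

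Among the leading genes, OAV3G000000046 had 15.0, 17.6 and 83.5 CPM in summer skin, against 10.8, 13.7 and 16.1 CPM in winter skin (log2 difference 1.24; edgeR unadjusted p = 0.00635, adjusted p = 0.438). OAV3G000018981 had 58.3, 67.7 and 202 CPM in summer skin, against 62.0, 67.6 and 69.5 CPM in winter skin. OAV3G000011625 had medians of 7.39 CPM in summer skin and 9.65 CPM in winter skin, and OAV3G000013503 of 25.1 CPM in summer skin and 33.0 CPM in winter skin. In skin the seasons overlapped for all 4.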

How the data were processed

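Poly-A RNA was sequenced without strand as read pairs of 150 bp, per the labels' protocols, so reads of a gene and of one that overlaps it or runs antisense cannot be separated, and near copies of a gene are uncertain. The authors deposited raw counts for 21024 genes in 42 libraries; 28 were used for the interaction and 14 skin libraries beside it. HISAT2 2.2.1, SAMtools 1.10, Cufflinks, Trim Galore 0.6.6 and FastQC are listed in the submitters' processing notes; the counter, the genome build and the annotation: not given in the sources used here. Even numbers made up 76.1% of the small counts (1 to 10), and counts of 2 were found 14021 times against 2930 counts of 1, as if both mates had been counted.

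Groups come from the sample titles. Counts were fitted in R 4.3.3 with edgeR 4.0.16 (TMM scaling, filterByExpr, robust quasi-likelihood test, two-sided, Benjamini-Hochberg adjustment over all genes tested, threshold 0.05), with 1 mean per group and no block; 199 genes had no count in the 28 libraries. The contrast is (summer minus winter in gills) minus (summer minus winter in muscle). The SE is the log2 difference over the root of edgeR's F. CPM are TMM-scaled, over the 28 libraries or within skin, and log2 CPM have a prior count of 2. A gene is named if it is among the 12 with the smallest p in its direction, with a mean of at least 1 CPM in a season of each tissue; 490 and 94 genes qualified. Replicates are separate fish per the labels, but p-values measure only the spread between these libraries. limma 3.58.1 and DESeq2 1.42.0 served for alternatives.

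Same-numbered gills and muscle of a season come from the same fish, per the labels. Their deviations from the group means correlated at a mean r of 0.0667 (-0.0264 to 0.338), and 3 of 14 gills libraries correlated best with their own muscle. These values do not establish the pairing, which rests on the labels. The genes, lists and tests were chosen with earlier results of these data known.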

Additional observations from a re-analysis of the deposited data

Results flagged for a closer look

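The seasonal effect differed between gills and muscle, by edgeR's interaction term, at 717 genes. Among the genes with identifiers the difference was 1.69 for OAV3G000013503, 3.31 for OAV3G000011625, -1.05 for OAV3G000000046 and -0.77 for OAV3G000018981 (log2, gills minus muscle). One library stood far from the rest of its group in 2 of 20 groups of 7 looked at, where chance gives about 1 in 20. Gills winter 1 had 20.8 CPM of OAV3G000011625, below the other winter gills libraries, and muscle winter 2 stood at 11.7% of the gills level for the median of 819 genes at least 16-fold higher in gills, above the other winter muscle libraries.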

How the results depend on the processing

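Direction was kept by all 24 named genes in each of the 45 alternatives run. The fit without muscle summer 4 is listed 2 times among these, so its values are counted 2 times. Of 1080 recomputed values, 1011 kept their side of the threshold, 69 did not and 0 reversed. All 24 kept it in each of the fits that left out 1 library, and all 24 lost it when near-identical libraries were averaged; 9 lost it in the fit of all 42 libraries, 6 with the season from the tag 1 with fish as a replicate block, and 1 or 4 for the within-fish difference in limma with a prior count of 2 or 0.5. For OAV3G000000046 and OAV3G000018981 the edgeR adjusted p over all 42 libraries was 0.123 and 0.120.

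The count of 717 interaction genes was 1523 in DESeq2 (1252 with the higher, 271 with the lower difference in gills), 3054 in limma voom with quality weights (63.0% with the higher difference in gills, against 84.7%), 251 with fish as a replicate block, 227 for the within-fish difference in limma and 445 with all 42 libraries. It was 0 with near-identical libraries averaged, also without muscle summer 4, 293 without the genes at least 16-fold higher in gills and 241 without muscle winter 2, 4 and 6. Leaving out 1 library gave 385 to 1314 genes: 1314 without muscle winter 1, 1269 without muscle winter 4, 385 without muscle winter 2, 401, 425 and 441 without gills summer 7, 4 and 1, 460 to 469 without gills winter 2, 5, 6 or 7, and 472 without muscle winter 6. Every fit without 1 gills library gave fewer than 717, the most being 574 without gills winter 4. The count of 4190 muscle genes was 1605 with averaging, 682 with averaging and without muscle summer 4, 2155 without muscle winter 2, 4 and 6, 1100 in its own fit and 2988 to 4918 without 1 library. The gills count of 0 was 1265 with quality weights and 0 to 2 without 1 library. Other scalings and filters kept these counts within 1.5 times. The cause of these shifts was not tested beyond what each setting leaves out. The alternatives without the genes at least 16-fold higher in gills, without muscle winter 2, 4 and 6, without skin summer 3 and 4, without skin summer 7, and with each tissue in its own fit were chosen after seeing the data. Genes under 1 CPM in muscle rest on few counts, most of all in muscle summer 4.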
